A study of Mus musculus with 8 samples.

Results

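Iron and heme handling was followed through 10 genes of the 55573 listed in the count table: *Tfrc*, *Steap3*, *Slc11a2*, *Slc11a1*, *Fth1*, *Ftl1*, *Ncoa4*, *Slc40a1*, *Hmox1* and *Blvrb*. They were chosen by their known roles, from iron entry through storage to release and heme breakdown. Earlier results of these data were known when these genes and the lists below were chosen, so counts of called genes are descriptions. A gene's row was found by the symbol of its Ensembl identifier. All 10 had a row, and all 10 passed the filter on low counts. The data are RNA-seq counts from brain microglia sorted on postnatal day 60, with 1 library per mouse: 4 mutants of the genotype *Smad2/3* fl/fl;*Cx3cr1* Cre, and 4 controls. SMAD2 and SMAD3 relay TGFβ signals from the receptor to the genome, and the comparison asks how microglia of these mutants differ from those of the controls.

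Cells take up ferric iron bound to transferrin through the transferrin receptor, reduce it in the endosome with a STEAP reductase and move it into the cytosol through a metal transporter. Macrophages, microglia included, also recover iron from the cells and debris they engulf: heme oxygenase opens the heme ring, releasing iron and biliverdin, and biliverdin reductases act on the product. Iron that is not used is held in ferritin, a shell of heavy and light chains that is degraded again when iron is needed, or leaves the cell through ferroportin. Iron regulatory proteins adjust several of these steps after transcription by binding a hairpin, the iron-responsive element, in the untranslated regions of the mRNAs.

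In the mutants, Cre expressed from the *Cx3cr1* locus acts in microglia and in related brain macrophages, so the deletion is not specific to microglia. The labels call the controls wild-type, whereas the Methods state that controls generally carried Cre and 1 floxed allele and that mice were backcrossed to C57BL6/J. Totals lay between 35639502 and 41946479 counts per library. *Smad3* was at 39.5 to 56.9 CPM (counts scaled to a common library size with TMM factors) in controls and 9.61 to 35.1 in mutants. It was lower by edgeR (log2 fold change -1.33, adjusted p = 0.0429). *Smad2* ranges overlapped, and *Smad2* did not pass that test (-0.34, adjusted p = 0.340). All 4 controls expressed *Xist* (99.5 to 183.2 CPM) and none of the mutants did above 0.562 CPM, while *Ddx3y* was at 9.74 to 59.8 CPM in the mutants and at most 0.224 in controls, so genotype and sex cannot be told apart in any comparison here. Markers of microglia and brain macrophages were present in every library (8 genes, summed CPM 23892 to 36166 in controls and 8717 to 11647 in mutants, 5 called lower). The 5 homeostatic microglia markers, all called lower, summed to 10991 to 16805 CPM in controls and 552 to 767 in mutants, and 6 markers of border-associated and tissue macrophages, 5 called higher, summed to 26.6 to 36.8 CPM in controls and 1909 to 2797 in mutants. In such bulk samples fewer cells of a type and less RNA per cell cannot be told apart.

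*Blvrb* and *Steap3* were higher in the mutants, and the other 8 genes did not pass the test in either direction. With edgeR's quasi-likelihood test and Benjamini-Hochberg adjustment over 20153 genes, an adjusted p under 0.05 called 2 of the 10 genes higher and 0 lower, against 4.36% of all tested genes called higher and 7.97% called lower (12.3% in either direction). DESeq2, which called 20.7% of its 22931 tested genes, called 2 higher and 0 lower as well. At an unadjusted p under 0.05, 2 of the 10 were lower, *Slc11a1* and *Slc40a1*, against 15.6% of all tested genes. The median log2 fold change of mutants over controls was -0.27 over the 10 genes and 0.01 over all tested genes. The CPM ranges of the groups did not overlap for 2 of the 10 genes, both higher in mutants, against 22.1% of tested genes (9.04% higher and 13% lower).

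**Figure D1:**
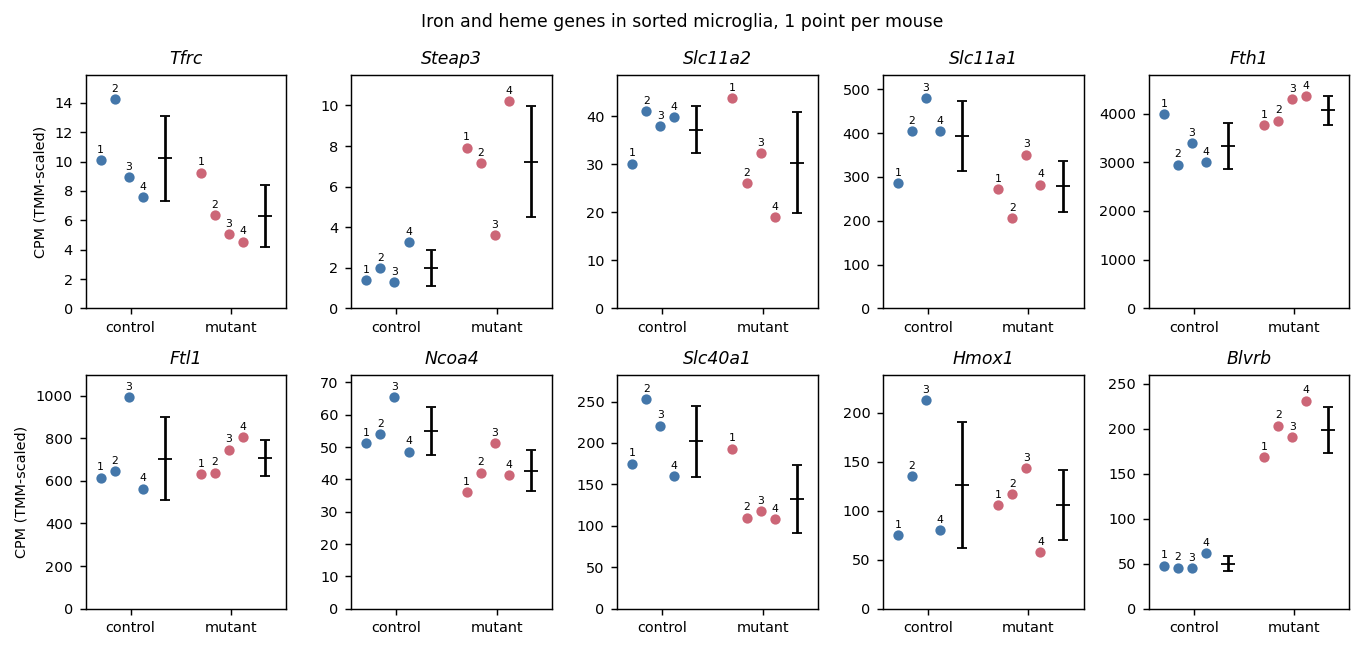
CPM of each iron or heme gene (vertical axis, TMM-scaled, starting at 0 and differing between panels) in 4 control mice (blue) and 4 mutant mice (red). Points carry the replicate number and black bars show the mean ± SD; all mutant points of *Steap3* and *Blvrb* lie above all control points, and the groups overlap in the other 8 panels.

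**Figure D2:**
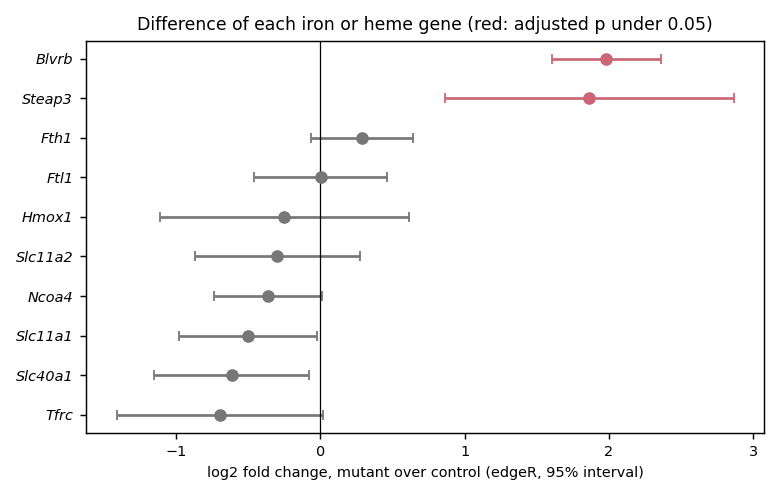
Log2 fold change of mutants over controls (horizontal axis) for the 10 genes, with 95% intervals from the edgeR fit. The intervals of *Blvrb* (1.60 to 2.36) and *Steap3* (0.86 to 2.86), drawn in red, are the ones past the adjusted threshold.

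The 10 genes spanned a wide range of transcript levels. Set per length, as TPM (counts per exonic length, scaled to the same sum in every library) in controls, the *Fth1* row was highest of the 10 at 2008 ± 219 TPM (SD, n = 4), followed by the *Ftl1* row at 1103 ± 308. Light-chain reads were split over copies, of which *Ftl2-ps* alone was at 4894 ± 1218 TPM, so these rows do not give the order of heavy and light chains. *Slc11a1* (224 ± 50 TPM) and *Hmox1* (152 ± 78.8) came next, and their ranges overlapped. *Slc40a1* (47.5 ± 12.6 TPM) and *Blvrb* (37.8 ± 5.37) overlapped in controls too. *Slc11a2* (12.3 ± 2.13 TPM) and *Ncoa4* (12.3 ± 1.86) could not be ranked, and *Tfrc* (3.50 ± 1.19) and *Steap3* (0.729 ± 0.326) were lowest. In the mutants *Blvrb* reached 135 ± 8.14 TPM and lay above *Slc40a1* (28.3 ± 11.02) with no overlap, and the ranges of *Tfrc* (1.98 ± 0.817) and *Steap3* (2.38 ± 0.83) overlapped.

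The sequences of 4 of the 10 mRNAs matched a strict form of the hairpin that iron regulatory proteins bind, and the matching sites are printed. Spliced untranslated regions of GENCODE M21 transcripts on GRCm38 were searched for a 6-base loop (CAGTGN, in capitals below) between 5 paired bases, with an unpaired C on the 5′ side. Hairpins with another loop or a further unpaired base were not searched for. A gene without a match may therefore still carry an element, and a gene with matches may carry more. A 5′ UTR match was found in 21 of 20749 genes (0.101%), 3 of them among the 10 genes. A 3′ UTR match was found in 98 of 21081 genes (0.465%), 1 of them *Tfrc*, with 4 sites. Each site is given 5′ to 3′ on the strand of its gene.
*Fth1* 5′ UTR, chr19:9982732-9982761, plus strand: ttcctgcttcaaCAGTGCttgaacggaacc
*Ftl1* 5′ UTR, chr7:45459778-45459807, minus strand: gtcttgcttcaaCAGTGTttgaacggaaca
*Slc40a1* 5′ UTR, chr1:45925464-45925493, minus strand: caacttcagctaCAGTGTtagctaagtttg
*Tfrc* 3′ UTR, chr16:32631219-32631248, plus strand: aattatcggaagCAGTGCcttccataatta
*Tfrc* 3′ UTR, chr16:32631598-32631627, plus strand: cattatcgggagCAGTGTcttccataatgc
*Tfrc* 3′ UTR, chr16:32631663-32631692, plus strand: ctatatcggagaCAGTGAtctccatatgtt
*Tfrc* 3′ UTR, chr16:32631710-32631739, plus strand: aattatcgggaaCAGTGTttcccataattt
Elements of the 5′ UTR are known to block translation when iron is scarce, and those of the *Tfrc* 3′ UTR to protect the mRNA from decay. None of the 4 genes with a match passed the test on mRNA level, and both genes that passed, *Blvrb* and *Steap3*, had no match. Protein was not measured.

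*Tfrc* encodes the transferrin receptor (chr16:32608920-32632794, plus strand). Its CPM was 10.1, 14.2, 8.95 and 7.56 in controls 1 to 4 and 9.25, 6.35, 5.07 and 4.56 in mutants 1 to 4. Mutants 2 to 4 lay below every control, and mutant 1 lay within the control range. The mean was 10.2 ± 2.88 CPM in controls and 6.31 ± 2.10 in mutants (SD, n = 4 per group), a log2 fold change of -0.70 (SE 0.316, adjusted p = 0.184) that did not pass the test.

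*Steap3* encodes the main ferrireductase of the endosome in red cell precursors (chr1:120190757-120272705, minus strand). It was at 1.40, 2.005, 1.29 and 3.25 CPM in controls 1 to 4 and at 7.92, 7.15, 3.62 and 10.2 CPM in mutants 1 to 4, from 46 to 370 reads per library. All mutants lay above all controls, but control 4 and mutant 3 were close. *Steap3* rose 3.63-fold (log2 fold change 1.86, SE 0.443, adjusted p = 0.0262). The call was lost when any of 6 of the 8 mice was left out (controls 1 to 3, mutants 1, 2 and 4), with log2 fold changes of 1.65 to 2.25 and adjusted p of 0.0177 to 0.0747 over the 8 fits. The genes whose log2 CPM followed *Steap3* most closely over the 8 libraries, of 10345 genes searched, were *Mrpl49*, *Adora2b* and *Gm8242* (Pearson r 0.982, 0.974 and 0.966), a description of libraries that differ by group.

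RNA of choroid plexus epithelium was present in every library. The 4 markers *Ttr*, *Folr1*, *Kl* and *Clic6* summed to 7336 to 25287 CPM in controls, lowest in control 3, and to 25734 to 42460 CPM in mutants, none was at 0, and 0 of 4 were called by edgeR (2 at an unadjusted p under 0.05, 1 by DESeq2). The ranges of the groups overlapped for *Folr1*, *Kl* and *Clic6* but not for *Ttr*. With the choroid plexus score as a covariate the log2 fold change of *Steap3* was 1.39 (SE 0.541, adjusted p = 0.276). In the sum of the 4 markers every control lay below every mutant, so this covariate runs partly with group. With it 846 genes were called, against 2485 without it, so a lost call does not show where a difference comes from. With a dissociation stress score *Steap3* was at 1.51 (adjusted p = 0.0595). The related reductases *Steap1* and *Steap2* were also lowest in control 3, at 12.8 and 4.87 CPM. Every mutant lay above every control for both genes, but neither passed the test in edgeR (log2 fold changes 0.98 and 1.04). DESeq2 passed *Steap2* (adjusted p = 0.0306) but not *Steap1* (adjusted p = 0.0546).

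*Slc11a2* encodes the divalent metal transporter that carries ferrous iron out of the endosome (chr15:100387898-100425072, minus strand). Its CPM was 30.1, 41.0, 37.9 and 39.8 in controls 1 to 4 and 43.8, 26.0, 32.3 and 19.0 in mutants 1 to 4. Mutant 1 was the highest of all libraries and mutant 4 the lowest, so the groups overlapped, with a log2 fold change of -0.30 (SE 0.253, adjusted p = 0.489). *Slc11a1* encodes the related transporter of the phagosome membrane of macrophages (chr1:74375195-74386062, plus strand). It was at 285.8, 403.9, 480.5 and 405.3 CPM in controls 1 to 4 and 273.1, 206.4, 351.2 and 282.4 in mutants 1 to 4. Control 1 and mutant 3 each lay inside the other group's range, and the log2 fold change of -0.50 (SE 0.212) had an unadjusted p of 0.0421 and an adjusted p of 0.157.

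*Slc40a1* encodes ferroportin, the known iron exporter of mammalian cells (chr1:45908068-45926523, minus strand). In controls 1 to 4 it was at 175.2, 253.2, 221.0 and 159.8 CPM, and in mutants 1 to 4 at 193.2, 109.8, 117.6 and 107.9 CPM. Mutants 2 to 4 lay below every control, whereas mutant 1 lay inside the control range. The log2 fold change was -0.61 (SE 0.238, unadjusted p = 0.0292, adjusted p = 0.127). Without mutant 1 it was -0.86 and passed the test (adjusted p = 0.0283); with any other mouse left out it did not. After each group's mean was removed, the log2 CPM of *Slc40a1* and *Tfrc* had a Pearson r of 0.847 over 8 libraries. That value was the highest of all pairs among the iron and heme genes followed here. It was picked from many pairs, so it does not show a specific link. The lowest values were those of *Blvrb* with *Slc40a1* (-0.808) and of *Blvrb* with *Tfrc* (-0.758). The count ratio of *Slc40a1* to *Tfrc* was 20.2 ± 3.42 in controls and 21.3 ± 2.92 in mutants.

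The ferritin chains did not pass the test. *Fth1*, the heavy chain, which oxidizes iron for storage (chr19:9980598-9985098, plus strand), was at 3984, 2952, 3390 and 3011 CPM in controls 1 to 4 and 3767, 3857, 4304 and 4350 in mutants 1 to 4. Control 1 was above mutants 1 and 2, and the other controls were below every mutant. The log2 fold change was 0.29 (SE 0.156, adjusted p = 0.264). *Ftl1*, the light chain, which supports the mineral core (chr7:45457944-45459884, minus strand), was at 614.8, 647.5, 991.9 and 564.1 CPM in controls 1 to 4 and 632.3, 638.2, 746.6 and 805.7 in mutants 1 to 4. Control 3 was the highest of all libraries, and the log2 fold change was 0.00 (95% interval -0.46 to 0.47, adjusted p = 0.996).

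The *Ftl1* row holds a small share of the light-chain reads. Of its transcripts' 50-base stretches 50.9% occur in other annotated genes, 47.3% in *Ftl1-ps1*, 22.3% in *Gm15590* and 19.1% in *Ftl2-ps*, with some shared by several. Its row held 17.9% to 20.1% of the reads counted on it and its copies, and the *Ftl2-ps* row held more, 1288 ± 315 CPM in controls against 705 ± 195 for *Ftl1*. An exon of *Gm10252* on the opposite strand also covers 26.5% of its exonic length in libraries that are not stranded. Summed over these rows, light-chain reads came to 3593 ± 904 CPM in controls and 3882 ± 466 in mutants, and the fold change of the sum was 0.11 on the log2 scale (SE 0.200, adjusted p = 0.771). The count ratio of heavy to light chains over summed rows was 1.11 ± 0.269 in controls and 1.21 ± 0.0713 in mutants, with overlapping ranges. Reads of the light-chain gene and its copies cannot be told apart here, so their levels are uncertain row by row.

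**Figure D3:**
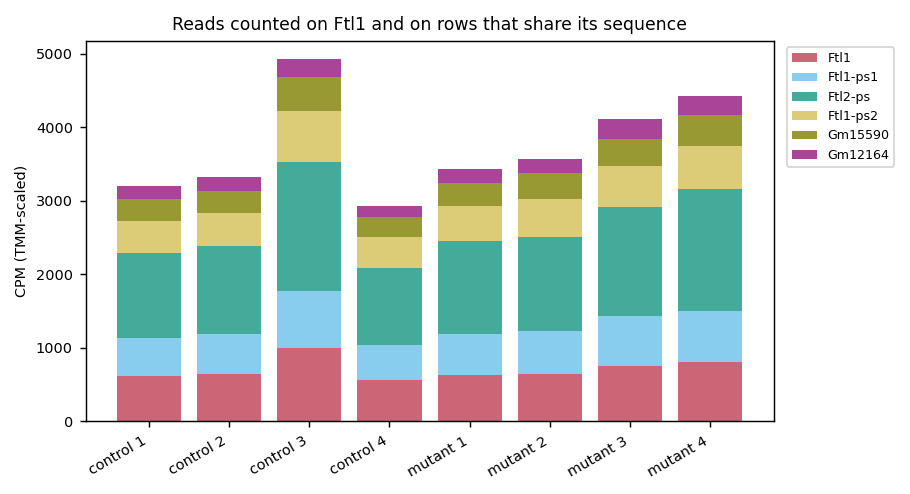
TMM-scaled CPM on *Ftl1* and on 5 rows that share its sequence, stacked for each of the 8 mice (vertical axis from 0). The *Ftl1* part, at the bottom, is 17.9% to 20.1% of each bar, and control 3 has the tallest bar.

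*Ncoa4* encodes the receptor that delivers ferritin to lysosomes for degradation (chr14:32159865-32179855, plus strand). It was at 51.3, 54.0, 65.5 and 48.6 CPM in controls 1 to 4 and at 35.99, 42.1, 51.3 and 41.3 in mutants 1 to 4. Mutant 3 alone reached the control range, and the log2 fold change was -0.36 (SE 0.165, adjusted p = 0.187). The pseudogene *Gm6768* shares 17.9% of its 50-base stretches and the *Ncoa4* row held 37.4% to 44.5% of the reads on both rows. With both rows summed the log2 fold change was -0.42 (adjusted p = 0.175).

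*Blvrb*, biliverdin reductase B, also called flavin reductase, which reduces biliverdins other than the main product of heme oxygenase (chr7:27447978-27466144, plus strand), was called higher. It was at 47.9, 45.9, 45.4 and 62.0 CPM in controls 1 to 4 and 169.0, 203.6, 191.1 and 231.4 CPM in mutants 1 to 4. The lowest mutant was well above control 4, the highest control. *Blvrb* rose 3.95-fold (50.3 ± 7.88 against 198.8 ± 26.0 CPM, log2 fold change 1.98, SE 0.168, adjusted p = 0.000145). It was called without any 1 of the 8 mice (1.90 to 2.15), and with the choroid plexus, erythroid or stress score as a covariate. *Blvrb* shares none of its 50-base stretches with another annotated gene.

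RefSeq has 2 starts for *Blvrb*, and the 250 bases before the first are printed because *Blvrb* was called in every fit run. They are RefSeq sequence of GRCm38.p6, chr7:27447728-27447977, plus strand, and capitals mark a match to the antioxidant response element (TGANNNNGC, searched on both strands, here on the minus strand).
*Blvrb* promoter: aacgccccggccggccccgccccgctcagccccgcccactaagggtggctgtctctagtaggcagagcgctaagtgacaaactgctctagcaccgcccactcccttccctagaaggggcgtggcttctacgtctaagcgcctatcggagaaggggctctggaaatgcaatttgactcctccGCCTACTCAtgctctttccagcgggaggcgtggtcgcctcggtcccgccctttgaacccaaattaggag
Such a match is common: 35.2% of 32851 promoters hold 1 or more in the 250 bases before the start. The 250 bases before the second start (chr7:27452168-27452417) hold 2. A match describes the letters and does not show binding.

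The genes whose log2 CPM followed *Blvrb* most closely over the 8 libraries, of 10345 searched, were *Pf4*, *Rpsa-ps9* and *Emp3* (Pearson r 0.997, 0.991 and 0.990). *Pf4*, a chemokine and a marker of border-associated macrophages, was at 8.64 to 15.4 CPM in controls and 652 to 1366 CPM in mutants. These correlations describe libraries that share a split by group, and the part of the border-associated macrophage markers in the *Blvrb* difference was not tested.

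*Hmox1*, the inducible heme oxygenase (chr8:75093621-75100589, plus strand), did not pass the test. In controls 1 to 4 it was at 74.8, 135.5, 213.2 and 80.3 CPM and in mutants 1 to 4 at 106.0, 117.3, 143.2 and 57.5 CPM. Control 3 was highest and mutant 4 lowest, and the log2 fold change was -0.25 (SE 0.381, 95% interval -1.11 to 0.61, adjusted p = 0.726). The count ratio of *Hmox1* to *Blvrb* was 2.63 ± 1.56 in controls and 0.550 ± 0.214 in mutants, without overlap. *Blvrb* is the denominator, so this separation repeats the *Blvrb* difference above and is not a further result.

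The level of *Hmox1* followed stress-response genes that are induced while cells are dissociated. A score of 8 such genes (*Fos*, *Jun*, *Egr1*, *Atf3*, *Hspa1a*, *Hspa1b*, *Dnajb1* and *Zfp36*, mean log2 CPM) was 12.4 in control 3 and 10.5 to 11.5 in the other 7 libraries. Over the 8 libraries its Pearson r with *Hmox1* was 0.842, and 0.855 after each group's mean was removed. *Ncoa4* (0.845) and *Ftl1* (0.810) also followed it within groups, while *Blvrb* (-0.617) and *Steap3* (-0.745) ran the other way. Control 3 and mutant 3 had the highest score of their groups. They also had the highest summed markers of microglia and brain macrophages of their groups (36166 and 11647 CPM). Whether these genes followed stress or the make-up of the samples was not tested. With the score as a covariate the *Hmox1* log2 fold change turned to 0.23 (adjusted p = 0.638), and without control 3 it turned to 0.13 (adjusted p = 0.873). None of the 8 genes was at 0 in any library, and 1 of them, *Egr1*, was called lower in mutants by edgeR. At an unadjusted p under 0.05, and by DESeq2, 4 of the 8 were lower, and the median log2 fold change of the 8 was -0.70. Of all tested genes edgeR called 7.97% lower, 15.6% were lower at that unadjusted p, and DESeq2 called 20.7% in either direction.

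**Figure D4:**
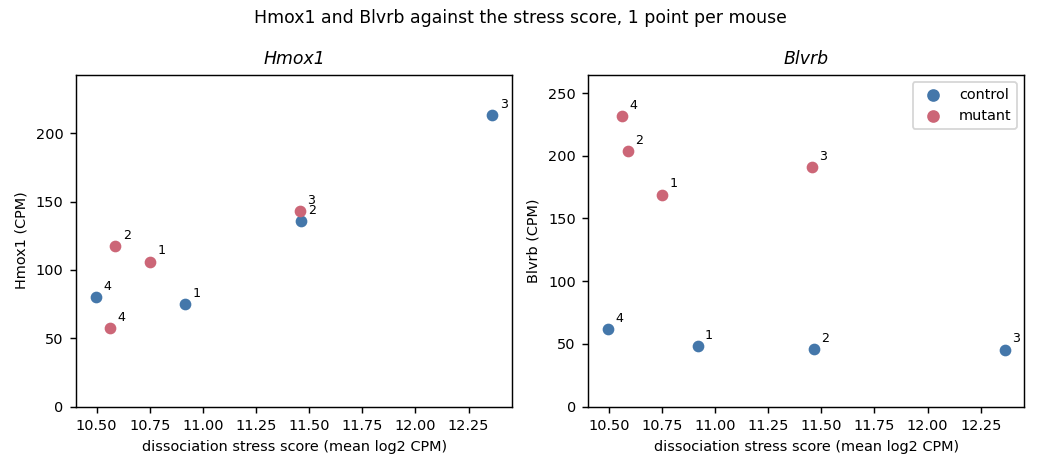
*Hmox1* (left) and *Blvrb* (right) in CPM, from 0, against the stress score (mean log2 CPM of 8 genes) in 4 control mice (blue) and 4 mutant mice (red), labelled by replicate number. *Hmox1* is highest in control 3, where the score is 12.4; *Blvrb* separates the groups at every score.

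Erythroid RNA differed between mice rather than groups. The 7 erythroid markers summed to 280 to 3152 CPM in controls and to 451 to 10883 CPM in mutants, the highest value being mutant 4, in which *Hba-a1* alone was at 2772 CPM. None of the 7 was called by edgeR or DESeq2 or at an unadjusted p under 0.05. Mutant 4 had the lowest *Hmox1*, *Slc11a2*, *Slc40a1* and *Tfrc* and the highest *Steap3* and *Blvrb*. With the erythroid score as a covariate *Steap3* kept its call (adjusted p = 0.0441), and without mutant 4 it was at 1.65 (adjusted p = 0.0656). Of the markers of neutrophils and monocytes (6 genes), oligodendrocytes, neurons and astrocytes (5 each) and endothelial cells (3 tested of 5), edgeR called 0, and 1 endothelial gene was lower in DESeq2 and at an unadjusted p under 0.05.

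Of 51 other genes of iron and heme handling 45 were tested, 4 were higher, 4 were lower, 37 did not pass, and the remaining 6 had too few reads, against 4.36% of all tested genes called higher and 7.97% lower. The median log2 fold change was -0.06, against 0.01 over all tested genes, and DESeq2, which called 20.7% of all genes it tested, called 10 higher and 5 lower. *Spic*, the transcription factor of iron-recycling macrophages in spleen and bone marrow, was at 0 to 0.905 CPM in controls and 33.1 to 38.3 in mutants (log2 fold change 6.91, SE 0.897, adjusted p = 0.00141). It passed the low-count filter through the mutants, and it was not tested when every library had to pass. Controls 2 to 4 were at most at 0.161 CPM, so the size of its change is uncertain (6.49 to 8.70 with a mouse left out). *Cd163*, the receptor for hemoglobin bound to haptoglobin, which is also among the border-associated macrophage markers above, was at 2.56 to 5.44 CPM in controls and 34.6 to 76.9 in mutants (4.06, SE 0.416, adjusted p = 0.000411). *Cp*, the ferroxidase ceruloplasmin that works beside ferroportin, rose by 2.69 on the log2 scale (2.86 ± 1.283 to 18.4 ± 7.66 CPM, adjusted p = 0.00344). All mutants lay above all controls for these 3 genes. *Trf*, transferrin, rose by 0.88 (143 ± 23.3 to 263 ± 53.8 CPM, SE 0.194, adjusted p = 0.0186). Its call was lost without control 2 (0.86, adjusted p = 0.0619). With the choroid plexus covariate the call was lost as well, while the estimate was 0.98 with a wider SE of 0.249 (adjusted p = 0.0801).

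The 4 genes called lower were 2 of 6 tested for heme transport, 1 of 6 for mitochondrial iron and iron-sulfur clusters and 1 of 9 for heme synthesis. *Slc25a37*, mitoferrin, the iron importer of mitochondria, was at 32.9 ± 6.86 CPM in controls and 8.99 ± 0.873 in mutants (log2 fold change -1.87, SE 0.198, adjusted p = 0.00049). *Slc46a1*, a transporter of folate and heme, was at 178.4 ± 28.7 and 53.9 ± 6.89 CPM (-1.73, adjusted p = 0.000325). *Abcg2*, an exporter of porphyrins and many drugs, was at 44.1 ± 8.50 and 14.0 ± 3.08 CPM (-1.66, adjusted p = 0.00153). *Alas1*, the first enzyme of heme synthesis outside red cell precursors, was at 171.2 ± 19.3 and 106.6 ± 14.8 CPM (-0.68, adjusted p = 0.0209). Its call was lost without control 1, control 4, mutant 2 or mutant 4 (adjusted p up to 0.0607). With the choroid plexus covariate the call was lost too, while the estimate was -0.72 (adjusted p = 0.0954). For all 4 genes every mutant lay below every control. The other 8 genes of heme synthesis did not pass, *Alas2* of red cell precursors among them (log2 fold change 0.05).

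**Figure D5:**
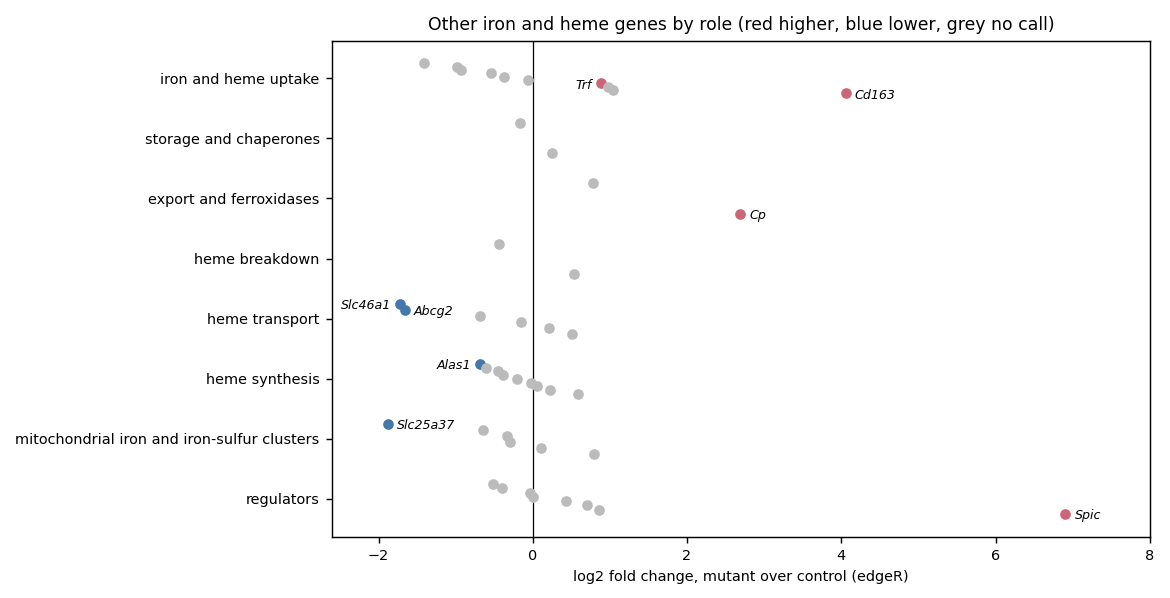
Log2 fold change of mutants over controls (horizontal axis) for the 45 tested other iron and heme genes, 1 point per gene in 8 rows by role. Red points passed the test as higher and blue as lower, and 37 grey points, spread on both sides of 0, did not pass.

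Among the direct partners of the 10 genes, *Blvra*, the reductase of the main biliverdin, was at 45.3 ± 6.67 CPM in controls and 65.7 ± 6.29 in mutants, with no overlap, but its log2 fold change of 0.54 missed the threshold in edgeR (adjusted p = 0.0539) and passed it in DESeq2 (adjusted p = 0.00723). The constitutive oxygenase *Hmox2* (-0.44, adjusted p = 0.139), the heme transporter *Slc48a1* (0.51, adjusted p = 0.102) and the zinc and iron importer *Slc39a8* (-1.41, adjusted p = 0.0597) did not pass in edgeR, and DESeq2 passed *Slc48a1* (adjusted p = 0.0366) and *Slc39a8* (adjusted p = 0.00926) but not *Hmox2*. The mRNAs of the iron sensors *Ireb2* and *Aco1* had log2 fold changes of -0.03 and -0.40 (adjusted p = 0.949 and 0.299). *Bach1*, the heme-sensing repressor of *Hmox1*, was at -0.52 (adjusted p = 0.318), and *Nfe2l2*, which encodes its activator Nrf2, at 0.43 (adjusted p = 0.167).

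Of 9 other known targets of Nrf2 0 were higher, 2 were lower and 7 did not pass, with a median log2 fold change of -0.19. Over all tested genes edgeR called 4.36% higher and 7.97% lower. At an unadjusted p under 0.05, and by DESeq2, 1 target was higher and 2 were lower. Of all tested genes 15.6% were lower at that unadjusted p, and DESeq2 called 20.7% in either direction. *Gclc*, a subunit of the first enzyme of glutathione synthesis, was at 79.8 to 114 CPM in controls and 18.6 to 38.5 in mutants (-1.95, SE 0.261, adjusted p = 0.00162). *Slc7a11*, the cystine importer, was at 34.3 to 47.1 and 22.4 to 26.4 CPM (-0.72, SE 0.155, adjusted p = 0.0169; with the choroid plexus covariate adjusted p = 0.173). *Gclm*, the other subunit of the glutathione enzyme (0.47, adjusted p = 0.0804), and *Nqo1* (0.95, adjusted p = 0.185) did not pass.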

How the data were processed

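RNA from sorted microglia of 8 mice was sequenced, 1 library per mouse. The deposited table holds raw counts per Ensembl gene, which the authors made with Rsubread (alignment) and featureCounts. The submitters' processing notes name mm10, featureCounts and DESeq2 1.28, and the annotation and strand setting are not given in the sources used here. Labels and Methods differ on the library kit (Nextera XT against NEBNext Ultra II) and on whether reads were single-end. The Methods name another deposit for the mutant data, so these libraries were matched to that experiment by genotype and cell type. A deposited table of the authors' own comparison (log2 fold changes, test scores, p-values and adjusted p-values) was not used. Columns of other samples numbered 0.

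Counts were tested with edgeR 4.0.16 (R 4.3.3; a minimum of 10 counts in 4 or more of 8 libraries, TMM scaling, glmQLFit and glmQLFTest, mutants against controls, no block, Benjamini-Hochberg over all tested genes, call at an adjusted p under 0.05). CPM values are TMM-scaled, and log2 CPM and scores used a prior count of 2. TPM used exonic lengths of GENCODE M21 on GRCm38, which gave a symbol and length for 55394 of the 55573 genes. The 10 genes and all lists were chosen with earlier results of these data known. Named genes are the 10 members, the called genes of the lists, partners with their values, markers, sequence copies and, for called members, the 3 genes of most similar pattern. Copies were found as 50-base stretches shared with transcripts of other genes (1% or more). RefSeq promoters matched 7 of the 10 genes, and none was found for *Hmox1*, *Slc40a1* and *Slc11a2*.

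On simulated data for this comparison, with 200 of 20153 genes changed by 2 on the log2 scale, edgeR recovered 58% and 4.13% of its 121 calls were false. DESeq2 1.42.0, the alternative, recovered 78.5%, and 32.9% of its 234 calls were false. The simulated counts were drawn with edgeR's own estimates of spread. Far fewer genes were changed than were called in the real data (2485 by edgeR, 4751 by DESeq2). The false shares therefore do not carry over to the real calls. The biological coefficient of variation was 0.542, so spread between mice, not depth, set the precision. P-values measure the spread between mice. The other alternatives were RLE size factors, library totals, no filter, a replicate block, a filter on every library, summed ferritin copies and each mouse left out. Tables were made in Python 3.11.15 (numpy 2.4.6, pandas 2.3.3, scipy 1.17.1) and plots with matplotlib 3.10.9.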

Additional observations from a re-analysis of the deposited data

Results flagged for a closer look

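Within groups of 4, a sample was listed when its gap to the nearest other value as a share of the group's range exceeded Dixon's critical value. Of 40 groups examined (20 genes) 4 had such a sample, and chance alone gives about 1 in 20. *Slc40a1* was at 193.2 CPM in mutant 1 and at 107.9 to 117.6 CPM in the other mutants. *Blvrb* was at 62.0 CPM in control 4 and at 45.4 to 47.9 CPM in the other controls, still below every mutant. *Cd163* was at 5.44 CPM in control 2 and at 2.56 to 2.66 CPM in the other controls. *Slc46a1* was at 64.3 CPM in mutant 3 and at 49.9 to 50.9 CPM in the other mutants.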

How the results depend on the processing

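*Blvrb* was called higher under all 17 alternatives (log2 fold change 1.84 to 2.15), and *Steap3* under 9 of 17. DESeq2 called 4751 genes against 2485 with edgeR, and 10 other iron and heme genes higher against 4. The score covariates were chosen after seeing the data, as was the sum over all near-identical copies: with the choroid plexus score 846 genes were called, with 1 of the 10 genes higher and 1 Nrf2 target, and with the stress score 1 of the 10 was higher. *Ftl1*, near 0, turned to -0.0033 in DESeq2, to -0.011 without a filter, and lay between -0.067 and 0.21 with a mouse left out, below 0 without control 1, 2 or 4 or mutant 3 or 4. *Hmox1* lay between -0.43 and 0.13 with a mouse left out, above 0 without control 3, and turned to 0.48 with the choroid plexus score and to 0.23 with the stress score. The cause was not tested. Leaving out each mouse gave 1567 to 2499 calls, 1 to 2 of the 10 genes higher and 0 to 1 lower. Library totals moved the median of all genes from 0.01 to 0.13.

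The main fit did not pair the mice by replicate number. Same-numbered libraries had correlations of 0.0183 to 0.166, and 1 pair was under 0.1. Of 24 possible pairings 0 had a higher mean correlation, and 6 of 8 libraries correlated best with their own number. These values hint at a pairing, so a fit with the replicate number as a block is given beside the main one. With the replicate block 2383 genes were called, *Blvrb* at 1.99 and *Steap3* at 1.87 (adjusted p = 0.0244), and 1 Nrf2 target in place of 2, *Slc7a11* being at -0.72 (adjusted p = 0.0523). *Steap3* had the fewest reads of the 10 genes, 46 to 370 per library.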
